A study of Mus musculus with 3 samples.

Results

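The cytokinesis genes described here are 10 genes whose products build or run the machinery that splits a dividing cell: Ect2, Racgap1, Kif23, Anln, Prc1, Cit, Kif20a, Kif4, Cep55 and Aurkb. They were measured by 21 probe sets, taken as every probe set on the array annotated to one of these symbols and to no other, out of 45101 probe sets and 18194 named genes. RNA came from melan-a NRAS61K cells, an immortalized mouse melanocyte line that carries the NRAS61K oncogene, grown in medium with dialyzed serum. All cells received doxycycline at 1 µg/ml, a drug that switches on the oncogene in this published line, for 6, 14 or 28 days, with 1 Affymetrix array per time. No untreated and no day 10 array was used here, so day 6 is the earliest point of an already treated course. The promoter that drives the oncogene, the number of clones and the number of pooled dishes are not given in the sources used here.

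At the end of mitosis the chromosomal passenger complex, which holds the kinase Aurkb, and the microtubule bundler Prc1 organise a midzone between the separating chromosomes. Centralspindlin, made of the kinesin Kif23 and the GTPase-activating protein Racgap1, recruits the exchange factor Ect2, which activates RhoA at the cell's equator. RhoA drives an actin and myosin ring that anillin (Anln) scaffolds and citron kinase (Cit) helps to settle into the midbody, and Cep55 then brings in the ESCRT proteins that cut the last bridge. When cytokinesis fails the cell keeps its nuclei together, and melanocytes with activated RAS are known to become senescent and multinucleated. Nuclei were not counted in these data, so the arrays speak only of the transcripts.

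Genes of late mitosis are commonly repressed outside cycling cells through an element called the CHR, with the letters TTTGAA, often near CCAAT boxes. RefSeq promoter windows (GRCm38.p6), each from 250 bases before an annotated transcription start to 50 bases from it on, were held for 8 of the 10 genes. The stretches below run from 60 bases before the start to 49 after it, counting the start as 0. They are shown because the same letters recur near the start of 7 of the 8 genes. Capitals mark TTTGAA or CCAAT on either strand, the other strand reading TTCAAA or ATTGG.
Ect2 (chr3:27153805-27153914, minus strand): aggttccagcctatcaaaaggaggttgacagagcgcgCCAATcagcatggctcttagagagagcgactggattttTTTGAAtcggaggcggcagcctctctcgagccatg
Racgap1 (chr15:99651607-99651716, minus strand): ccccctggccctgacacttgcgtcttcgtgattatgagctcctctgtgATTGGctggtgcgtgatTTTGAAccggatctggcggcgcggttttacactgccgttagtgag
Kif23 (chr9:61946750-61946859, minus strand): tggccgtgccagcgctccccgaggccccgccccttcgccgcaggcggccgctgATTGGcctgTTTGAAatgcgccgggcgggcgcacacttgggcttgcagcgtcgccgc
Anln (chr9:22389157-22389266, minus strand): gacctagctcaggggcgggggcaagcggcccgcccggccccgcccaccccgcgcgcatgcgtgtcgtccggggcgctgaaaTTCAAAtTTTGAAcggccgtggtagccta
Prc1 (chr7:80294391-80294500, plus strand): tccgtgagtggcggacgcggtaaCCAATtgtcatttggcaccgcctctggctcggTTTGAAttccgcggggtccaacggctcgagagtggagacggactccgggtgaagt
Kif4 (chrX:100626005-100626114, plus strand): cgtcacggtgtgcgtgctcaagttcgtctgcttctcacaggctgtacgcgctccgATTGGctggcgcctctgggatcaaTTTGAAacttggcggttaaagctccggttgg
Cep55 (chr19:38054924-38055033, plus strand): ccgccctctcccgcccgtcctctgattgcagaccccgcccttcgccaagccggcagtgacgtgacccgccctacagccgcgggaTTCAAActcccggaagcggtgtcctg
Cit (chr5:115845596-115845705, plus strand): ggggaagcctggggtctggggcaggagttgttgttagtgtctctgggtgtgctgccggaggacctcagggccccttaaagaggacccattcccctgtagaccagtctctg

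In these stretches 8 matches to TTTGAA lay in 7 genes, all between -5 and 33 bases from the start, and Anln held a pair in opposite orientation 1 base apart. Ect2, Prc1 and Cep55 each have another annotated start, from which the same matches lie at 39 to 44, -30 to -25 and -33 to -28 bases. Within the stretch, 7 of 8 cytokinesis genes (87.5%) held the letters, against 15 of 25 spindle and kinetochore genes (60%), 2 of 29 DNA replication genes (6.90%) and 1719 of all 27025 genes with a window (6.36%). Over the whole 300-base window the shares were 87.5% for the cytokinesis genes and 20.2% for all genes, and for CCAAT they were 62.5% and 41.1%. The spindle and kinetochore genes held CCAAT in 76% and the DNA replication genes in 58.6%, so it was not particular to the cytokinesis genes. In Kif23 the reversed CCAAT and the TTTGAA both lay within 7 bases of the start, and in Racgap1 they lay within 12 bases of it. The letters TTCCCGC, an E2F-type site, were in the window of 0 of the 8 cytokinesis genes, 13 of 29 DNA replication genes (44.8%) and 5.29% of all genes, searched on both strands. In a set of 8 genes, a count of 0 is near the share of all genes. The window of Cit belongs to a transcription start 432 bases inside the annotated gene and held neither TTTGAA nor CCAAT, which says only that these letters are not in that window. A match of letters is a description and not a measured binding site. The whole window held TTTGAA in 13.8% of the DNA replication genes. Their median log2 difference for day 28 against day 6 was -1.22, and that of the cytokinesis genes -1.32. Whether the letters bear on expression was not tested.

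**Figure D1:**
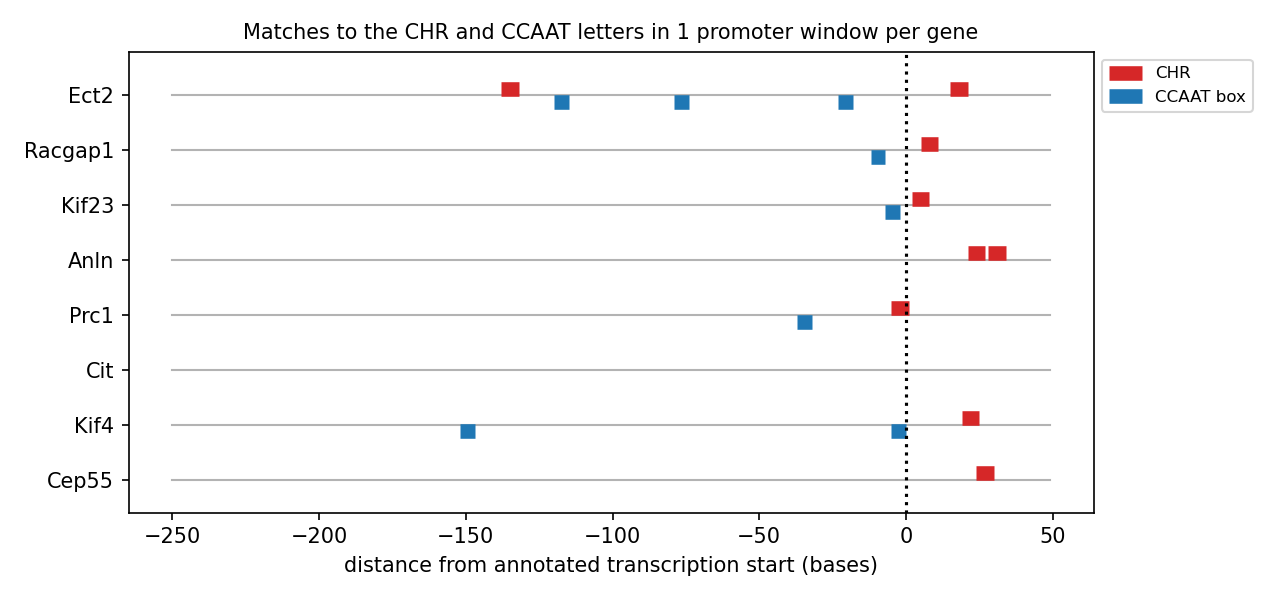
Matches to TTTGAA (CHR, red) and CCAAT (blue), on either strand, in 1 promoter window for each of 8 cytokinesis genes; the horizontal axis is the distance in bases from the annotated transcription start, and each grey line is a window of 300 bases. Red blocks lie between -5 and 33 bases in 7 genes, with a second one of Ect2 at -138 and none in Cit.

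All 10 genes were lower at day 28 than at day 6, where 47.9% of all genes were lower by any amount, and each was also lower in both steps in between. Values are on a log2 scale with an arbitrary offset, so levels of different genes are not compared, and each gene is represented by its brightest probe set unless another is named. At day 28 all 10 were at least 2-fold lower than at day 6, from 2.18-fold for Kif23 to 3.04-fold for Kif4, with a median log2 difference of -1.32. Over the 11164 genes that exceeded the background of at least 1 of both arrays, 3.87% were at least 2-fold lower and 6.76% at least 2-fold higher, and the median was 0.03. Counted from the lowest difference among them, the members stood between place 71 (Kif4) and place 324 (Kif23).

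Since each time had 1 array, culture-to-culture spread is unknown, no p-value is given and each difference describes 2 arrays. The error at hand is how far probe sets of the same gene differ. Over 4365 genes the SD of their log2 differences from day 6 was 0.31 at day 28 and 0.29 at day 14. The same SD was 0.23 for the step from day 14 on. The 10 differences of day 28 against day 6 had an SD of 0.16 among themselves, below that disagreement. The order of the 10 genes by size of difference is therefore not resolved. The 3 comparisons share arrays, so an error of the day 6 array enters both comparisons with it, and an error of the day 14 array enters the 2 steps with opposite sign. In RNA of a whole culture, fewer dividing cells and less of a transcript per dividing cell cannot be told apart.

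**Figure D2:**
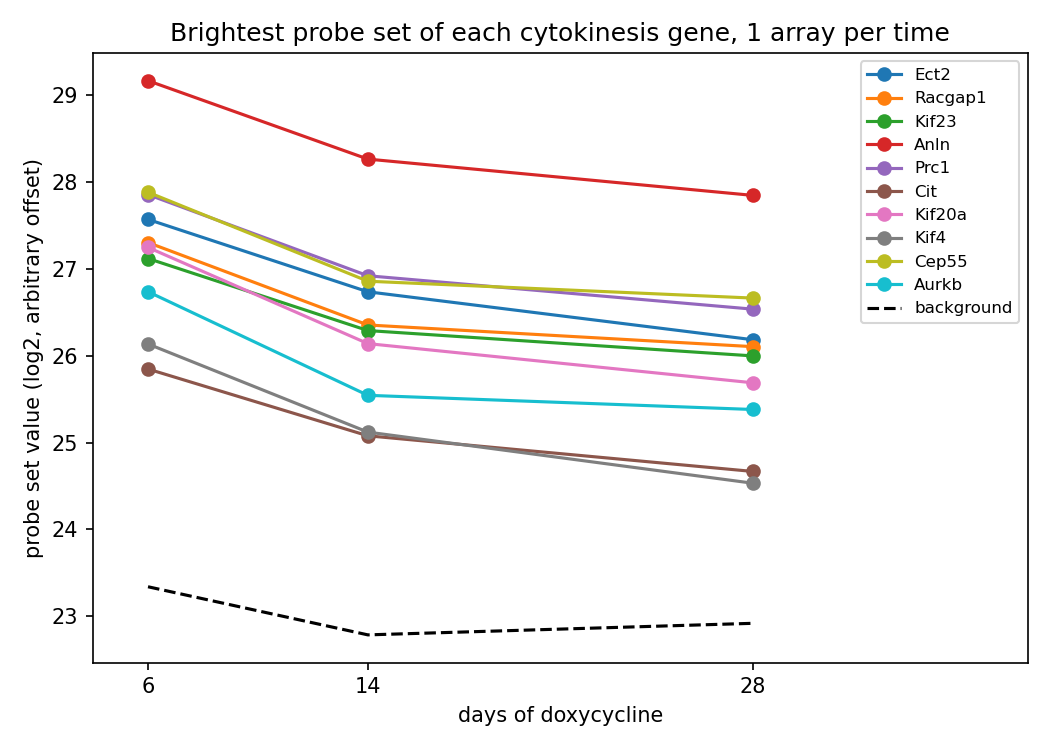
Probe set values (log2, arbitrary offset) of the 10 cytokinesis genes against days of doxycycline, 1 array per time, with the background of each array as a dashed line. Every line is lower at day 14 than at day 6 and lower again at day 28, and all points lie above the background, the lowest being Kif4 at 24.53 on day 28.

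Of the RhoA switch at the midzone, the members Ect2, Racgap1 and Kif23 were each lower. Rhoa itself is not a member and differed by -0.13 at day 28 from day 6. Ect2, the exchange factor for RhoA, read 27.57, 26.74 and 26.18 at days 6, 14 and 28, and was thus 2.61-fold lower at day 28 than at day 6. Racgap1, the centralspindlin subunit that binds Ect2, read 27.30, 26.35 and 26.10 in the same order, 2.30-fold lower at day 28 than at day 6. Kif23, the kinesin of centralspindlin, read 27.12, 26.29 and 26.00, 2.18-fold lower. Both centralspindlin genes were well above the background of 23.34, 22.78 and 22.92 on the 3 arrays. A second Racgap1 probe set read 26.98, 25.78 and 25.67, and gave -1.31 for day 28 against day 6 where the first gave -1.20. A second Kif23 probe set read 24.68, 23.58 and 23.23, and gave -1.45 where the first gave -1.12. One further probe set of each gene lay below the background on all arrays, and no difference is drawn from it.

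Aurkb, the kinase of the chromosomal passenger complex that phosphorylates Kif23 and helps to time abscission, had most of its difference in the first step. It read 26.74, 25.54 and 25.38 at days 6, 14 and 28, 2.29-fold lower at day 14 than at day 6 and 1.12-fold lower at day 28 than at day 14. Its other probe set read 26.21, 25.04 and 24.78, and was 2.24-fold lower and 1.20-fold lower in the same steps. The 2 agree within the disagreement between probe sets. Both are of classes (ending in _x_at and _s_at) in which some probes can match other transcripts, although the annotation lists only Aurkb for them.

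The midzone bundler and the kinesins that work with it followed. Prc1, which crosslinks antiparallel microtubules, read 27.86, 26.92 and 26.54, 2.50-fold lower at day 28 than at day 6, and its other probe set gave 2.57-fold. Kif4, the chromokinesin that Prc1 recruits to set the length of the midzone overlap, read 26.14, 25.12 and 24.53, 3.04-fold lower. Kif20a, the kinesin known for placing Plk1 at the midzone, read 27.25, 26.14 and 25.69, 2.95-fold lower. These kinesins had the 2 lowest differences of the 10 genes, -1.60 and -1.56, but lay within 1 SD of probe set disagreement of the median. Each was measured by 1 probe set.

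For the ring and the midbody, the scaffold gene Anln read 29.17, 28.26 and 27.85 and was 2.50-fold lower at day 28 than at day 6. A dimmer Anln probe set read 24.95, 24.20 and 24.03 and was 1.88-fold lower, short of 2-fold. Cep55, which recruits the abscission machinery, read 27.88, 26.86 and 26.66 and was 2.33-fold lower at day 28 than at day 6. Most of that lay in the first step, at 2.04-fold, and the second step was 1.14-fold. A second Cep55 probe set read 23.53 at day 6, just above the background of 23.34, and lay below the background at days 14 and 28.

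Among probe sets above the background on all arrays, those of Cit disagreed most. Its brightest one read 25.85, 25.08 and 24.67, 2.26-fold lower at day 28 than at day 6. The next brightest read 24.35, 23.80 and 24.10, 1.18-fold lower, and was the only one of the 17 member probe sets above the background on all arrays to be higher at day 28 than at day 14. Another, of the _x_at class, read 24.31, 24.27 and 24.16, 1.11-fold lower. The dimmest read 23.35 at day 6 and lay below the background later. The difference of Cit thus rests on the choice of probe set: with the median over all 4, day 28 differed by -0.20 on the log2 scale from day 6 and by 0.10 from day 14. Which transcripts of Cit each probe set detects was not tested.

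**Figure D3:**
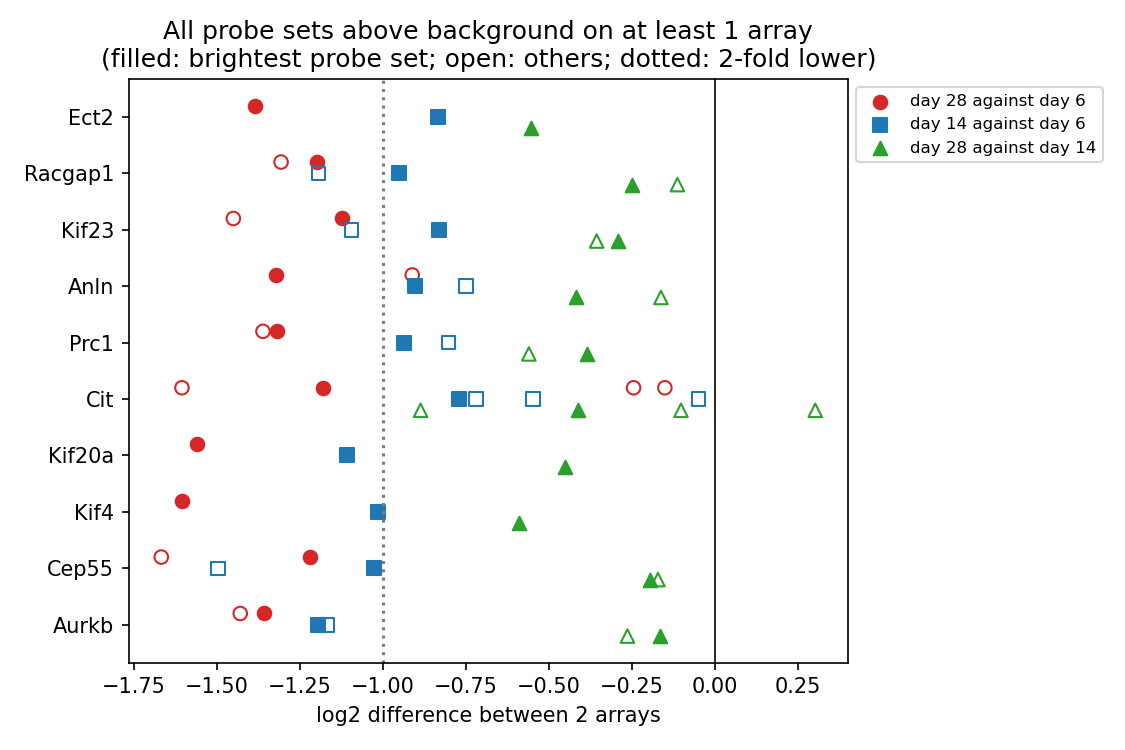
Log2 differences of the 19 probe sets above the background on at least 1 array, by gene, for the 3 comparisons; filled symbols are the brightest probe set of a gene, open symbols the others, and the dotted line marks 2-fold lower. All circles (day 28 against day 6) are below 0 and 16 of 19 are past the dotted line, and those short of it are 1 of Anln and 2 of Cit. By brightest probe set, 3.87% of all genes were at least 2-fold lower in that comparison.

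Over the 17 probe sets above the background on all arrays, 17 were lower at day 28 than at day 6, 14 of them at least 2-fold. Of the 7 that were not the brightest of their gene, 4 were at least 2-fold lower, and their differences ran from -1.45 to -0.15. Shares over all probe sets were not computed. By brightest probe set, 47.9% of all genes were lower and 3.87% at least 2-fold lower. Probe sets of a gene share its transcripts and the arrays, so they are repeat measurements of the same RNA.

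As deposited, day 14 against day 6 held the larger part of the difference for every gene. All 10 were lower, where 51.7% of 11223 genes were lower by any amount. The members' median was -0.94 against -0.02 over all genes, and their range was -1.19 (Aurkb) to -0.77 (Cit). At least 2-fold lower were 4 genes, Aurkb, Kif20a, Cep55 and Kif4, against 3.67% of all genes, and at 1.5-fold all 10 were lower, against 13.7%. The first step made up 60.2% (Ect2) to 88.0% (Aurkb) of the whole log2 difference, with a median of 71.0%. Both the count of 4 and these shares depended on scaling. With the median level of the reference genes set equal, which moved the median of all genes to 0.32, the count was 0 and the members' median -0.60. The first step was then the larger one for 4 genes and the smaller one for 6, with shares of 38.4% (Ect2) to 68.1% (Aurkb) and a median of 48.5%. That scaling matched levels and not differences. The reference genes' own median difference was 0.09 in the first step and -0.16 in the second under it, and -0.25 and 0.07 as deposited. Shares with these differences set to 0 were not computed.

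Day 28 against day 14, the longer interval, held a smaller difference in the same direction under the deposited scaling. With the median level of the reference genes set equal, the direction was the same and the members' median was -0.63, against -0.60 in the first step. The reference genes' own median difference was -0.16 in this step under that scaling. All 10 were lower, where 45.2% of 11441 genes were lower by any amount, with a median of -0.40 against 0.04 (log2) over all genes. No member was 2-fold lower (0 of 10, against 1.43% of genes), and 1, Kif4 with a log2 difference of -0.59, was 1.5-fold lower, against 4.34%. The differences ran from -0.59 (Kif4) to -0.16 (Aurkb), and those of Aurkb (-0.16) and Cep55 (-0.19) were smaller than the SD between probe sets of 0.23. Ect2 at -0.55 and Kif4 at -0.59 were more than 2 times that SD.

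Partners of the members at the midzone were lower as well. Of 10 listed, 9 were above the background and all 9 were at least 2-fold lower at day 28 than at day 6. That share was 3.87% over all genes, and the partners' median was -1.35. Plk1, the mitotic kinase that prepares Ect2 binding to Racgap1, was 3.49-fold lower, Birc5, the passenger subunit survivin, 3.27-fold, the spindle pole kinase Aurka 3.06-fold and the kinesin Kif18b 2.61-fold. The other 2 subunits that hold Aurkb in the passenger complex, named here after their values were seen, were Incenp at -1.35 and Cdca8 at -1.30.

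The ring's general parts had medians nearer to that of all genes than to that of the members. Of 14 described genes of RhoA, formins and the contractile ring, 2 were at least 2-fold lower and 0 higher. Of all genes, 3.87% were lower and 6.76% higher by that much. The list's median was -0.16 against 0.03 for all genes. With the mean or the median over the probe sets of a gene it was -0.31 or -0.30, against -0.02 for all genes. Diaph3, a formin, was 3.34-fold lower (24.12 at day 28 and 25.86 at day 6), and Arhgap11a, a GTPase-activating protein for RhoA, 2.03-fold lower. The actin monomer binder Pfn1 was 1.57-fold lower and the myosin light chain gene Myl12b 1.34-fold higher. Rhoa itself, named after its value was seen, differed by -0.13.

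Septins, the filament proteins that brace the ring and bind anillin, had a median of 0.10 with 0 of 7 past 2-fold in either direction. Septin8 was 1.92-fold higher, while Septin11 was 1.67-fold lower, Septin6 1.44-fold lower and Septin10 lower by a log2 difference of -0.58. The ESCRT and abscission genes had a median of 0.10 as well, with 0 of 18 past 2-fold. In lists this short, counts of 0 are near the shares over all genes, 3.87% lower and 6.76% higher. The severing enzyme gene Spast was 1.70-fold higher, the filament subunit gene Chmp4b 1.68-fold higher and Chmp1b 1.34-fold higher. Pdcd6ip, which encodes the ALIX protein that Cep55 binds, was 1.49-fold lower. These values describe the lists, and whether they differ from the members beyond culture error was not tested.

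**Figure D4:**
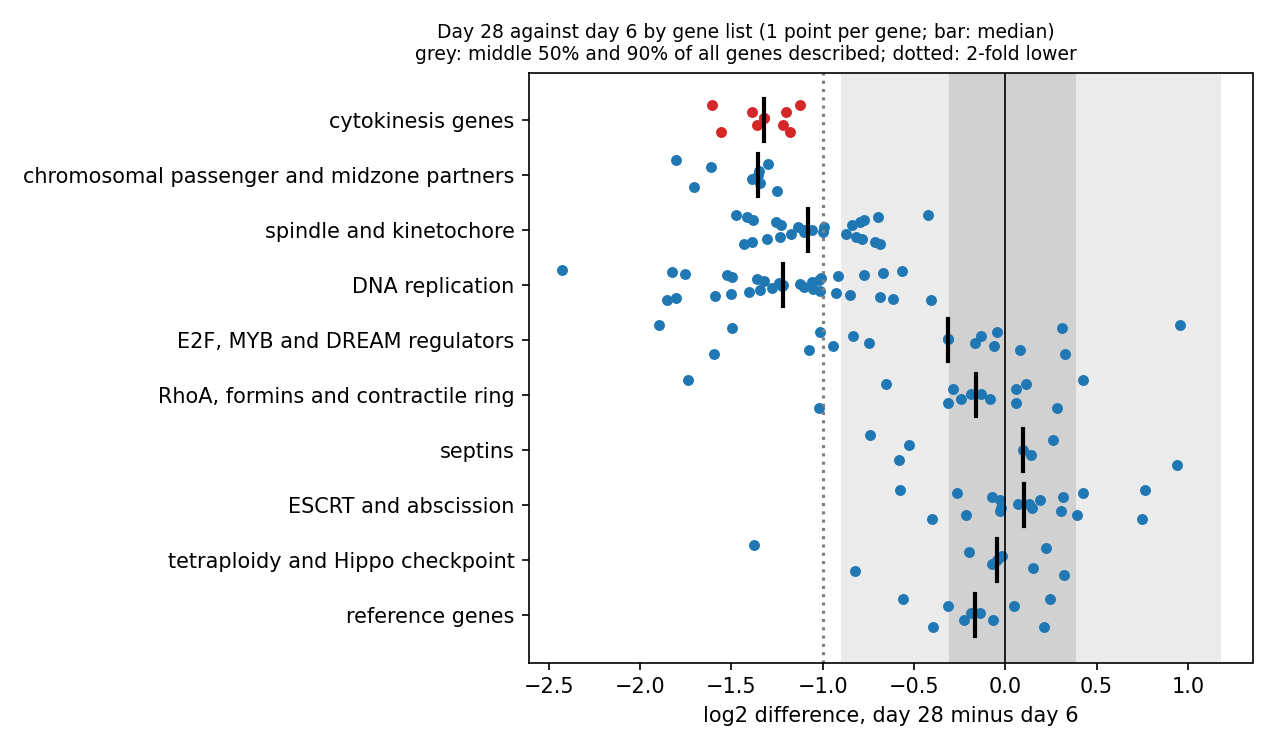
Log2 difference of day 28 against day 6 for genes that exceeded the background of either array, by list, with a bar at each median and grey bands for the middle 50% and 90% of all 11164 genes. The cytokinesis genes (red) lie between -1.60 and -1.12, beyond the dotted line at 2-fold lower, while septins and ESCRT genes lie on both sides of 0.

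A further list held transcription factors that drive or hold back late cell cycle genes. At day 28, 5 of 18 had values at least 2-fold lower than at day 6 and 0 higher. Of all genes, 3.87% were lower and 6.76% higher by that much. The median of the 18 was -0.31. With the mean or the median over the probe sets of a gene that median was -0.65 or -0.71. Mybl2, which opens the late cell cycle programme, was 3.72-fold lower, Foxm1, which sustains it in G2, 2.82-fold lower, and E2f7, an atypical E2F known in mouse liver for its part in polyploidy, 3.02-fold lower. E2f2, one of the 5, is bounded only at 1.80-fold or more, since its day 28 value did not reach the background. By any amount, 14 of the 18 were lower at day 28, against 47.9% of all genes. Rbl2, named here after its value was seen, was 1.94-fold higher at day 28 and 2.01-fold higher at day 14 than at day 6. Of 9 genes of the tetraploidy and Hippo response described, 1 was 2-fold lower, and the median was -0.04 with the brightest probe sets, -0.43 with their mean and -0.47 with their median. The YAP target gene Ccn1 was 2.60-fold lower, the kinase gene Lats2 1.77-fold lower, Ccn2 1.25-fold higher and the co-activator gene Wwtr1 1.17-fold higher.

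Cell cycle genes outside cytokinesis were lower too. Of 26 spindle and kinetochore genes, 14 were at least 2-fold lower and 0 higher by that much, against 3.87% and 6.76% of all genes. Their median was -1.08, with a range of -1.47 to -0.42. Lowest were the checkpoint gene Mad2l1 at 2.78-fold, the cohesin protector Sgo1 at 2.69-fold, and the kinetochore genes Spc24 at 2.67-fold and Nuf2 at 2.62-fold. The DNA replication list had 24 of 33 genes at least 2-fold lower, 0 of them higher by that much, and a median of -1.22. It included the helicase subunit gene Mcm5 at 3.61-fold, the thymidine kinase gene Tk1 at 3.54-fold, the replisome gene Mcm10 at 3.49-fold and the origin recognition gene Orc1, dim at day 28, at least 2.79-fold lower. The 5 genes nearest to the members' median profile over the 3 arrays, among 9987 ranked by Euclidean distance of their 2 differences from day 6, were Espl1, Rad51ap1, Wdhd1, Pole and Rrm1, at distances of 0.02 log2 units each. Of the 89 genes within a distance of 0.2, 18 were on the spindle or replication lists. Those lists held 27 and 33 genes on the array, beside the 9987 genes ranked.

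Other facts of the arrays, in order of time, were as follows. Controls for added poly-A RNA averaged 23.86, 24.07 and 24.30 at days 6, 14 and 28, and hybridization controls 27.45, 27.53 and 27.53. As a measure of RNA quality, the log2 signal of the Actb probe set at the 3' end exceeded that at the 5' end by 0.58, 0.76 and 0.75 on the arrays of days 6, 14 and 28. The same subtraction for Gapdh gave -0.24, -0.10 and -0.09. Reference genes had a median log2 difference of -0.16 for day 28 against day 6, with Hprt 1.47-fold, Gapdh 1.32-fold and Actb 1.24-fold lower and B2m 1.18-fold higher. Of 12 melanocyte markers, 6 were above the background at day 6 and 8 at days 14 and 28, and Tyr, Oca2, Kit and Ednrb were at or below it on every array. Their summed level over the background was 5.58, 8.51 and 7.41 on the log2 scale in order of time. Summed the same way, fibroblast markers (4, 4 and 5 of 8 above the background, with Col1a2, Lum and Thy1 below it throughout) gave 4.86, 6.25 and 5.55, and leukocyte markers (4 of 8 on each array, with Ptprc, Itgam, Cd14 and Cd3e below it) gave 3.35, 4.88 and 5.12. Endothelial markers (1 of 5, Cdh5 alone) gave 1.32, 3.29 and 5.08, and keratinocyte markers (3 of 6, with Krt14, Krt1 and Trp63 below it) 2.37, 2.79 and 2.77. The background itself was 23.34 at day 6 and lower at days 14 and 28 (22.78 and 22.92), which adds to these sums and counts there. Probe set values differed as well. At day 28, 4 of 8 described melanocyte markers and 1 of 4 described leukocyte markers were at least 2-fold higher than at day 6. In both lists 0 were lower by that much, against 6.76% of all genes higher and 3.87% lower. Cdh5 differed by 4.23 on the log2 scale. The median value of the keratinocyte markers was 23.03, 22.80 and 22.82. Pmel was counted below the background at day 6 with 23.07 and above it at day 28 with 23.05. The part of any of these in the members' differences was not tested.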

How the data were processed

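Per the labels' protocols, biotin-labelled cRNA was hybridized to Affymetrix arrays, 1 per time point. The deposited table held log2 values per probe set, with the same sorted values in all 3 columns, so they had been quantile normalized before deposit. How probes were summarized was not stated in the labels, and a shift that most genes share would not survive quantile normalization. The base of 2 was inferred from hybridization controls, whose slopes were 0.78 to 0.80 per log2 unit of concentration, and levels ran from 1.46 to 30.6 with an unexplained offset.

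Gene names came from the platform annotation, which lists 1 gene for 34958 probe sets, several for 932 and none for 9211. A gene took its probe set with the highest mean. As background, each array had the 90th percentile over 60 genes (93 probe sets) taken as silent in pigment cells, some of which may be expressed. Precision is limited by how many arrays there are. A gene was described when it exceeded the background of either array. When the dimmer array was below it, a lower bound is given.

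The members and lists were chosen with earlier results of these data known. Named genes are all members, up to 4 per list with the largest difference of day 28 against day 6, and the 5 nearest profiles. Alternatives covered probe sets, background, scaling, filter and fold. Python 3.11.15, numpy 2.4.6, pandas 2.3.3 and scipy 1.17.1 were used, and the steps were tested on simulated data.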

Additional observations from a re-analysis of the deposited data

How the results depend on the processing

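The direction of the members' median, lower at the later time, was the same in all 3 comparisons under each alternative run. With the median level of the reference genes set equal, the members' median was -0.60 between days 14 and 6, with 0 members 2-fold lower. It was -0.63 between days 28 and 14. All genes had medians of 0.32 and -0.20 in these comparisons, and the reference genes themselves 0.09 and -0.16. With the poly-A controls set equal, an alternative added after the data were examined, the members' median was -1.77 between days 28 and 6 and -0.63 between days 28 and 14, and 9 members were 2-fold lower at day 14 than at day 6, where 7.60% of all genes were. That scaling moved the median of all genes to -0.42, -0.20 and -0.23 in these comparisons, and the share of genes at least 2-fold lower at day 28 than at day 6 to 12.9%, with 3.17% higher. At 1.5-fold, 10 members were lower at day 14 than at day 6, and 1 was lower at day 28 than at day 14. Between days 28 and 6 the count of 10 was 9 with the mean or the median over probe sets, where Cit was short of 2-fold, and 9 without probe sets ending in _x_at or _s_at, where Aurkb had none left. For day 28 against day 14, Cit turned to 0.10 with the median over its probe sets. With the mean over probe sets Racgap1 gave -4.90 for day 28 against day 6, since one of its probe sets, below the background, read 17.8, 5.09 and 5.55 in order of time. No paired analysis was possible because each time point had 1 array, and for the same reason no array could be left out. Signal near the background limits the second Cep55 probe set and the dimmest of Cit.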
